A study of Saccharomyces cerevisiae with 4 samples.

Results

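The yeast proteasome genes form a defined set of 36 open reading frames, listed by name, with earlier results of these data known. They hold the 14 subunits of the 20S core particle, 18 subunits of the 19S regulatory particle, the regulator RPN4, the polyubiquitin gene UBI4, the alternative activator BLM10 and the assembly factor UMP1. Of the 36 genes, 35 had a row among the 5799 of the deposited table, and all 35 were tested, as were 5291 genes in all. BLM10 (YFL007W) had no row and is not analysed here. RPN4 had values on 3 arrays, and the other 34 genes on 4.

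Saccharomyces cerevisiae BY4741 grew in YPD, a rich medium, at 28 °C until the absorbance reached 0.6. Cultures of 50 ml then received 30 mM acetic acid for 2 h or stayed untreated. BY4741 is a laboratory strain of mating type a, and both groups carried the same deletions (his3Δ1, leu2Δ0, met15Δ0 and ura3) with LYS2 intact. The labels write the ura3 allele with a different number on each array. Each of 4 two-colour arrays held RNA of 1 untreated and 1 acid-treated culture, and the treated RNA carried Cy5 on 2 of them and Cy3 on the other two. Arrays are called Cy5-1, Cy5-2, Cy3-1 and Cy3-2, by the dye that marks the treated cells and by the labels' replicate number, and values for every array are listed in that order.

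Each value is the deposited log ratio of an array, taken as base 2 and read as treated over untreated. Neither reading is stated in the sources used here. The direction is likely, since all 7 tested targets of the weak-acid factor Haa1 then lie above 0 (mean log2 ratios of 2.54 to 5.53). That list was chosen with earlier results of these data known, which limits its weight. Across genes, every pair of arrays correlated above 0 (Pearson's r of 0.41 to 0.80), so the ratios of both dye orientations run in 1 direction. Cy3-1 stood apart, with an SD of 1.05 over all genes against 0.70 to 0.81 on the others, and with the lowest correlations. Only the ratios were used here, so signal over background is unknown, and a ratio compares RNA amounts, not protein or proteasome activity. The replicates are biological by the design text, but if arrays of the same number share RNA, the p-values are too small.

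The proteasome degrades proteins that carry chains of ubiquitin. Its core particle is a stack of rings, with alpha subunits outside, which gate the entry, and beta subunits inside, of which PRE3, PUP1 and PRE2 carry the proteolytic sites. The regulatory particle caps the core, binds ubiquitin chains, removes them and threads the substrate inward with a ring of ATPases, the RPT subunits. In yeast, the genes of both particles are activated together by Rpn4, a short-lived transcription factor that the proteasome itself degrades, and UBI4 supplies ubiquitin under stress.

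No proteasome gene passed the test after 2 h of acetic acid. Of 35 genes, 0 were called higher and 0 lower at an adjusted p of 0.05 in limma's moderated test, against 10.9% of all 5291 genes tested (8.85% higher and 2.02% lower). The mean log2 ratios of the 35 genes ran from -0.36 to 0.71. Their median was 0.16, against -0.04 over all genes tested, and 21 lay above 0 and 14 below (60.0% above, against 46.7% of all genes). At an unadjusted p under 0.05, 7 of the 35 were higher, beside 17.7% of all genes, and 0 were lower, beside 12.2%. They were PRE7, UBI4, PRE2, RPN11, RPN3, RPN9 and RPT3. Among the 34 genes with 4 values, 8 lay above 0 on every array (23.5%, against 22.9% of all genes with 4 values) and 3 below 0 on every array (8.82%, against 19.3%). The share above 0 on every array was thus close to that of all genes.

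A change of 2-fold or more lay outside the 95% interval of most members. The interval fell wholly between a log2 ratio of -1 and 1 for 32 of 35 genes (91.4%, against 69.4% of all genes tested). The exceptions were UBI4, whose interval reached 2.27-fold higher, RPT1, whose interval reached 2.29-fold higher, and RPN7, whose interval reached down to a ratio of 0.461. These bounds hold if the base of the ratios is 2.

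**Figure D1:**
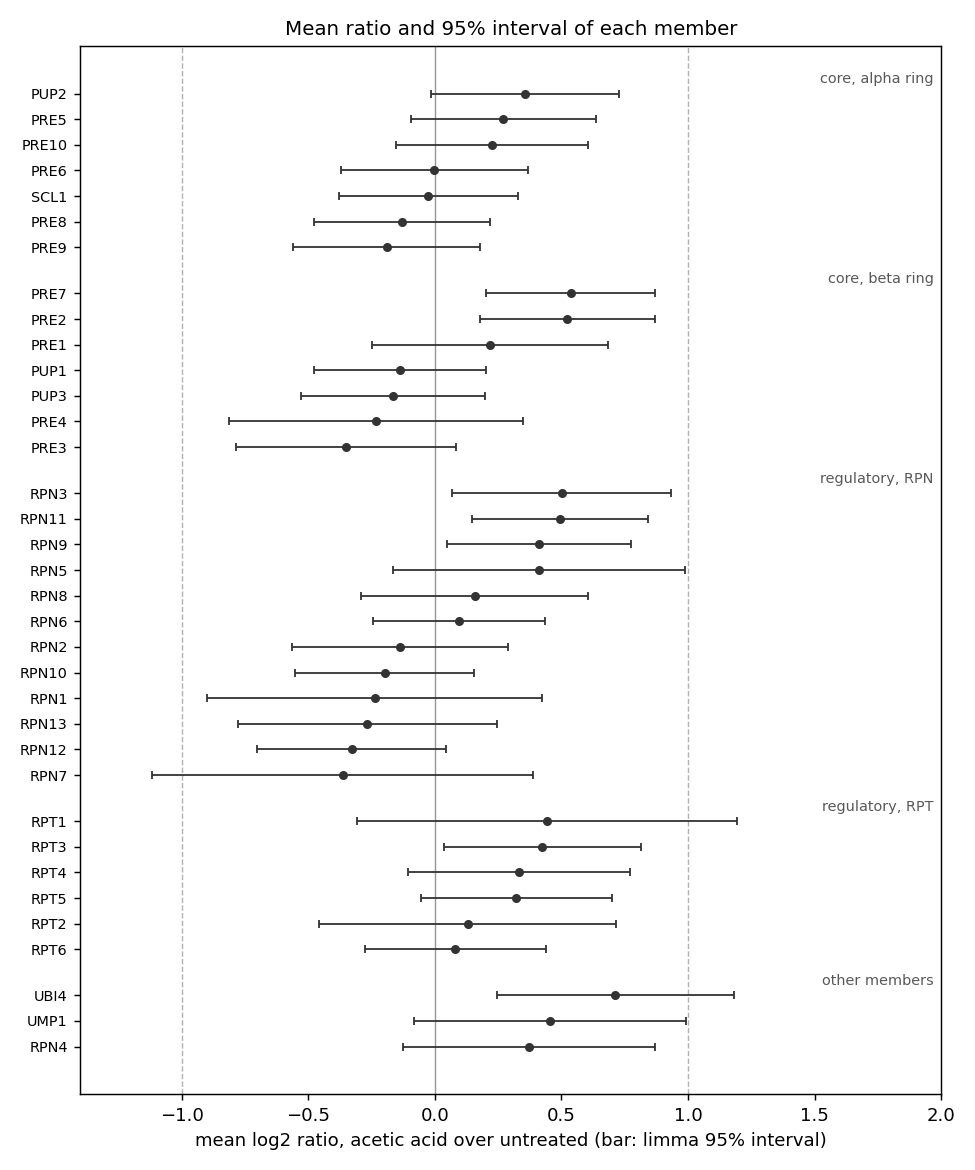
Mean log2 ratio of acid-treated over untreated cells (x axis) for each of the 35 genes with values (y axis), grouped by particle; bars are limma's 95% intervals over 4 arrays (3 for RPN4) and dashed lines mark 2-fold. All means lie between -0.36 and 0.71, and the bars of UBI4, RPT1 and RPN7 cross a dashed line.

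**Figure D2:**
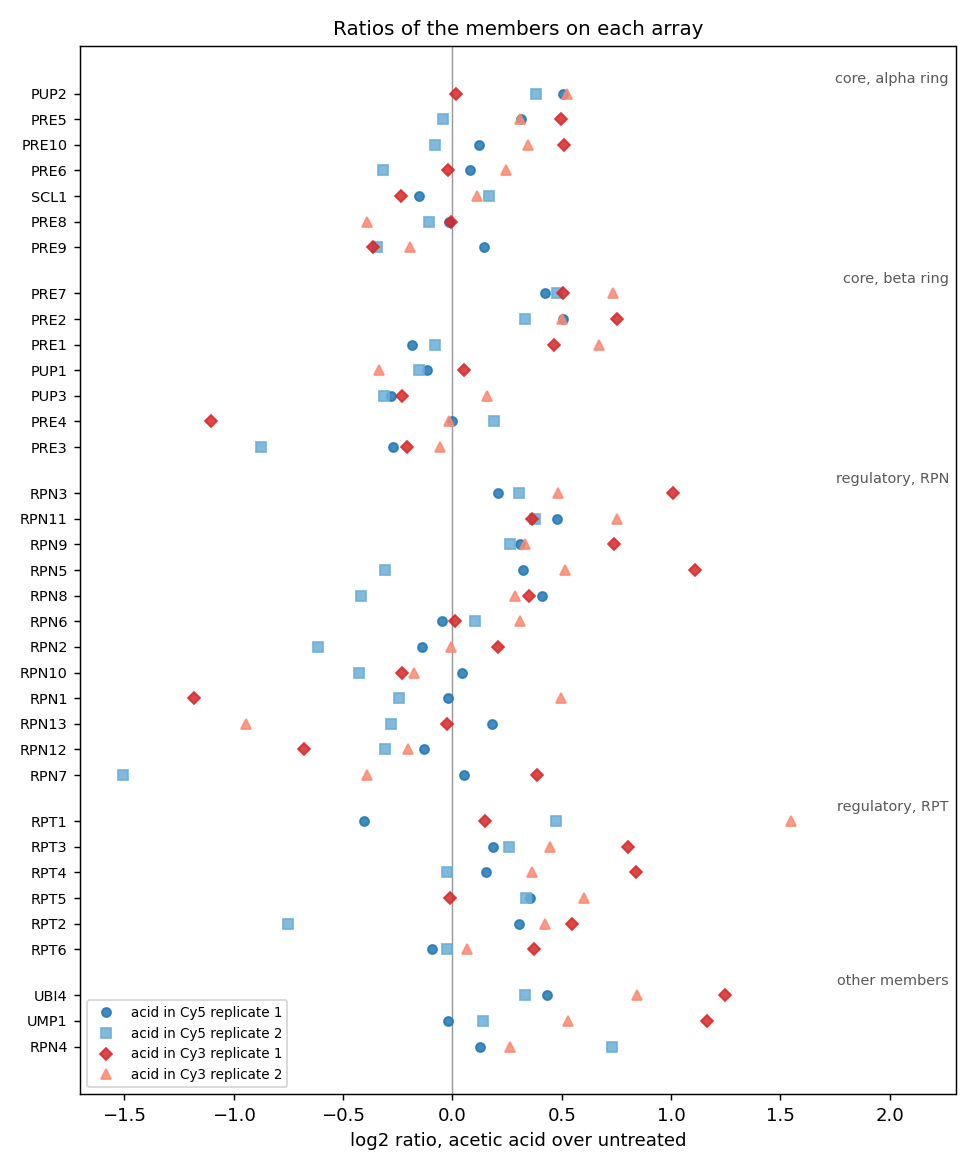
Log2 ratio of each gene (y axis) on each of the 4 arrays (x axis, acid-treated over untreated), with circles and squares for acid in Cy5 and diamonds and triangles for acid in Cy3. The 4 values of PRE7 lie together between 0.43 and 0.74, while those of RPT1 and RPN7 are spread over both sides of 0.

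In the alpha ring, which forms the gate of the core, 3 of 7 mean ratios lay above 0 and the median was -0.0018. PUP2 (YGR253C) was the highest, with log2 ratios of 0.50, 0.38, 0.02 and 0.53 and a mean of 0.36 ± 0.24 (SD, n = 4, as for all means below unless stated; adjusted p = 0.175 in limma). Cy3-1 was its low array, at the level of no change. PRE9 (YGR135W) was the lowest of the ring, with 0.15, -0.34, -0.36 and -0.20 and a mean of -0.19 ± 0.23 (adjusted p = 0.430). Of its arrays, only Cy5-1 was above 0. PRE9 encodes the one alpha subunit that yeast can live without. The remaining subunits were PRE5 (mean 0.27), PRE10 (0.22), PRE6 (-0.0018), SCL1 (-0.026) and PRE8 (-0.13), and PRE8 was below 0 on every array.

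In the beta ring, 3 of 7 means lay above 0 and the median was -0.14, but the ring held the smallest unadjusted p of all members. PRE7 (YBL041W), a beta subunit without a proteolytic site, had log2 ratios of 0.43, 0.48, 0.51 and 0.74. Its mean was 0.54 ± 0.14, or 1.45-fold (95% interval 1.15 to 1.83), with an adjusted p of 0.0597. All 4 arrays were above 0 and close to each other. Without Cy3-1 its mean was 0.55 and the adjusted p 0.0476, in a fit that called 12.2% of all genes higher. Leaving out Cy5-1, Cy5-2 or Cy3-2 instead gave an adjusted p of 0.175, 0.162 and 0.217 in limma.

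The subunits with proteolytic sites had ratios on both sides of 0. PRE2 (YPR103W), which carries the chymotrypsin-like site, had 0.51, 0.33, 0.76 and 0.50, with a mean of 0.52 ± 0.17 or 1.44-fold (adjusted p = 0.0687), and every array was above 0. PRE3 (YJL001W), which carries the caspase-like site, had -0.27, -0.87, -0.21 and -0.06, with a mean of -0.35 ± 0.36 (adjusted p = 0.233). All of its arrays were below 0, and Cy5-2 was far lower than the others. PUP1, which carries the trypsin-like site, had a mean of -0.14 ± 0.16 (adjusted p = 0.534). The remaining beta subunits were PRE1 (mean 0.22), PUP3 (-0.17) and PRE4 (-0.23). The ratio of PRE4 rested on 1 array, Cy3-1 with -1.10, and was 0.060 without it.

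The RPN subunits, which do not hydrolyse ATP, had 6 of 12 means above 0 and a median of -0.021. RPN11 (YFR004W), the deubiquitinating enzyme of the lid, had log2 ratios of 0.48, 0.38, 0.36 and 0.75, with a mean of 0.49 ± 0.18 or 1.41-fold (adjusted p = 0.0798). RPN3 (YER021W), a scaffold subunit of the lid, was the highest of the 12, with 0.21, 0.31, 1.01 and 0.48 and a mean of 0.50 ± 0.36 (adjusted p = 0.127). RPN9 (YDR427W), also of the lid, had 0.31, 0.26, 0.74 and 0.33 and a mean of 0.41 ± 0.22 (adjusted p = 0.131). These 3 genes were above 0 on every array, with Cy3-1 highest for RPN3 and RPN9.

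RPN7 (YPR108W) had the lowest mean of all members, -0.36 ± 0.82 (adjusted p = 0.455). Its values were 0.05, -1.50, 0.39 and -0.39, so that its arrays spread as widely as those of RPT1 and on both sides of 0, and without Cy5-2 its mean was 0.016. RPN12 (YFR052W) had a smaller spread, with -0.13, -0.31, -0.68 and -0.20 and a mean of -0.33 ± 0.24 (adjusted p = 0.203), and was the only RPN gene below 0 on all arrays. The ubiquitin receptor genes RPN10 and RPN13 had means of -0.20 ± 0.19 and -0.27 ± 0.49, and RPN1, whose product also binds ubiquitin and its carriers, had -0.24 ± 0.70. None of these 3 passed (adjusted p = 0.391, 0.424 and 0.581). The remaining genes were RPN5 (mean 0.41), RPN8 (0.16), RPN6 (0.095) and RPN2 (-0.14). Among the members, the 8 listed genes of the lid had a median of 0.28, and the 9 of the base, RPT genes included, a median of 0.13.

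For the 6 RPT genes, which encode the ATPase ring, every mean lay above 0, with a median of 0.33. RPT3 (YDR394W) had 0.19, 0.26, 0.81 and 0.45, with a mean of 0.42 ± 0.28 (adjusted p = 0.141), and was the only one of the 6 above 0 on all arrays. RPT1 (YKL145W) had the highest mean but not the smallest p, with -0.40, 0.48, 0.15 and 1.55 and a mean of 0.44 ± 0.82 (adjusted p = 0.368). Its arrays covered both directions. RPT6 (YGL048C) was the lowest, with -0.09, -0.02, 0.38 and 0.07 and a mean of 0.08 ± 0.21 (adjusted p = 0.736). RPT4, RPT5 and RPT2, the last of which takes part in opening the gate of the core, had means of 0.33, 0.32 and 0.13. None of the 6 passed.

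The mean ratio over the RPT genes was higher with acid in Cy3, although RPT5 went the other way (-0.049, Cy3 minus Cy5). Over the 6 genes the mean was 0.084 and 0.045 with acid in Cy5, and 0.45 and 0.58 with acid in Cy3. On Cy3-2 the median of the 6 was 0.435, and RPT1 stood at 1.55. A smaller split was seen for all 32 subunits together, RPT genes included, with means of 0.10, -0.11, 0.17 and 0.24. All genes tested had means of 0.076, 0.12, -0.081 and 0.079. The difference of the Cy3 from the Cy5 arrays was thus 0.21 for the subunits and -0.099 for all genes. It was 0.45 for the RPT genes, 0.20 for the RPN genes and 0.10 for the core. In the group means, the split was not complete outside the RPT genes. Cy3-1 (0.046) lay below Cy5-1 (0.077) in the core, and Cy3-2 (0.12) below Cy5-1 (0.14) in the RPN genes. In a fit with a term for the dye, 0 of 35 members had a dye effect past an adjusted p of 0.05 in limma (smallest 0.665), with 12 genes past it among all 5291. At an unadjusted p under 0.05 these numbers were 0 and 372. The part of the dye in the difference between the Cy3 and the Cy5 arrays over the subunits was not tested.

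**Figure D3:**
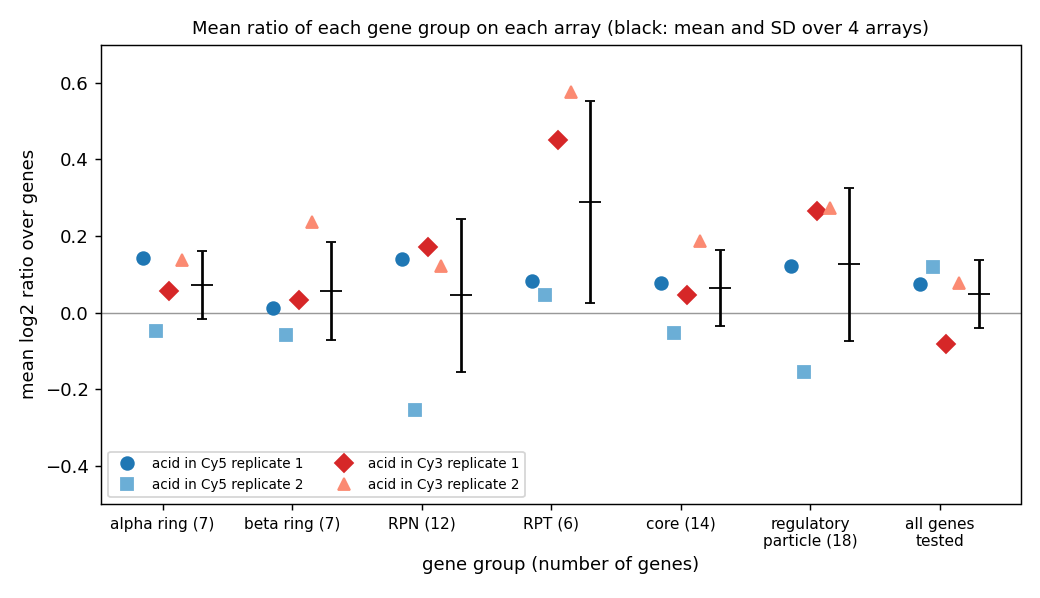
Mean log2 ratio over the genes of each group (y axis) on each array (symbols), with the mean and SD over the 4 arrays in black; the x axis gives the groups and their number of genes. The core and the regulatory particle overlap, and the RPT genes lie higher on both arrays with acid in Cy3 (0.45 and 0.58) than on both with acid in Cy5.

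The core and the regulatory particle could be compared within each array, which removes a shift that an array adds to all genes alike. A difference in scale between arrays, or a dye effect that differs between genes, is not removed. The mean over the 14 core genes was 0.077, -0.054, 0.046 and 0.19 on the 4 arrays, or 0.064 ± 0.099 overall. The mean over the 18 regulatory particle genes was 0.12, -0.15, 0.26 and 0.27, or 0.13 ± 0.20. The core minus the regulatory particle was -0.044, 0.10, -0.22 and -0.086, with a mean of -0.062 ± 0.13. This difference was smaller than its spread over arrays, and the regulatory particle was higher on 3 arrays and the core on 1. Without Cy3-1 it was -0.0097. No test was made, since the genes were chosen with results of these data known.

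Mean ratios varied between the subunits of one particle, and whether by more than the spread between arrays was not tested. The SD between the mean ratios of the 14 core genes was 0.29 and that of the 18 regulatory particle genes 0.31, against 0.68 over all genes tested. A typical member varied between arrays by an SD of 0.26 (median over 35 genes), against 0.36 over all genes tested. Across the 32 subunits, which are not independent replicates, Pearson's r between pairs of arrays was 0.14 to 0.56, below the 0.41 to 0.80 over all genes, as a description of a set with a narrow range of ratios. RPN3, RPN9, RPN11, RPT3, PUP2, PRE2 and PRE7 were the 7 subunits above 0 on every array, and PRE3, PRE8 and RPN12 the 3 below.

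RPN4 (YDL020C), the transcription factor of the proteasome genes, had log2 ratios of 0.13, 0.73 and 0.27, with no value on Cy3-1. Its mean was 0.37 ± 0.32 (n = 3), or 1.29-fold, with a 95% interval of 0.916 to 1.83 and an adjusted p of 0.261 in limma. The 3 measured arrays were all above 0, and the value of Cy5-2 was the highest. Of 4 genes of factors known to act on RPN4 (Hsf1, Yap1, Pdr1 and Pdr3), 2 were tested, and YAP1 and PDR1 had means of -0.30 ± 0.31 and -0.33 ± 0.19 (n = 3 for PDR1; adjusted p = 0.269 and 0.262).

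UBI4 (YLL039C), which encodes ubiquitin as a chain of head-to-tail repeats, had the highest mean of all members. Its log2 ratios were 0.43, 0.33, 1.25 and 0.84, with a mean of 0.71 ± 0.42 or 1.64-fold (95% interval 1.19 to 2.27; adjusted p = 0.0678). All 4 arrays were above 0, and both arrays with acid in Cy3 were above both with acid in Cy5. UBI4 was called with a dye term (adjusted p = 0.0326; 9.87% of all genes higher), with arrays centred and scaled (0.0390; 9.85%), after quantile normalization (0.0460; 10.2%) and with the replicate number as a random block (0.0479; 10.5%), a fit in which PRE7 was called too (0.0429). With same-numbered arrays averaged instead, neither was called (adjusted p = 0.0983 for UBI4 and 0.162 for PRE7). UBI4 was also not called without shared variance (adjusted p = 0.190) or with any 1 array left out (0.0661 to 0.223). The other ubiquitin genes are fused to ribosomal proteins. RPL40B and RPS31 had means of 0.32 ± 0.13 and -0.24 ± 0.38, and 0 of these 3 fusion genes (RPL40A, RPL40B and RPS31) passed (0 also at an unadjusted p under 0.05). The ubiquitin repeats are alike in sequence in all of these genes, and how far their spots share signal is not known.

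UMP1 (YBR173C), a chaperone of core assembly that the finished proteasome degrades, had -0.02, 0.14, 1.16 and 0.53. Its mean was 0.45 ± 0.53 (adjusted p = 0.217), and it was 0.22 without Cy3-1. Both arrays with acid in Cy3 were again above both with acid in Cy5. Of 10 other assembly or proteasome-bound factors tested, 1 rose and 0 fell, beside the 8.85% of all genes called higher. ADD66, a subunit of the chaperone pair that guides the alpha ring, rose by 0.76 ± 0.045 or 1.70-fold (adjusted p = 0.0170), with 0.74, 0.72, 0.82 and 0.77 on the 4 arrays. Its call was lost without Cy5-1, Cy5-2 or Cy3-2 (adjusted p = 0.0935, 0.0813 and 0.0975), although its mean stayed at 0.76 to 0.78.

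Upstream of the proteasome, ubiquitin is activated by E1, carried by E2 enzymes and placed on substrates by ligases. Among E1 and E2 genes, 2 of 13 rose and 0 fell, beside 8.85% of all genes called higher and 2.02% lower, with a median of 0.064. UBC4, an E2 of short-lived and abnormal proteins, rose by 0.76 ± 0.23 (adjusted p = 0.0283), and RAD6, the E2 of the N-degron pathway and of histone ubiquitylation, by 0.64 ± 0.24 (adjusted p = 0.0489). Both were above 0 on 4 of 4 arrays. The call of RAD6 was lost in limma when genes with at least 2 values were tested (adjusted p = 0.0527). Among ubiquitin ligase genes, 0 of 13 passed, with a median of -0.24. Of their means 11 lay below 0, as did 53.3% of all genes tested, and 2 were lower at an unadjusted p under 0.05, near the 12.2% of all genes. They were SSM4, a ligase of the endoplasmic reticulum membrane, with -0.83 ± 0.62 (adjusted p = 0.0851), and UBR1, the N-degron ligase, with -0.58 ± 0.43 (adjusted p = 0.117).

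Downstream, deubiquitinases and the carriers of ubiquitylated proteins held the largest changes of these lists. Of all genes tested, 8.85% were called higher and 2.02% lower. Among deubiquitinase genes, 1 of 17 rose and 0 fell. At an unadjusted p under 0.05, 5 were lower and 3 higher, beside 12.2% and 17.7% of all genes. UBP13 had the lowest mean of those tested, -0.84 ± 0.47 (adjusted p = 0.0520 in limma). UBP9 had log2 ratios of 2.33, 1.93, 2.83 and 2.63, with a mean of 2.43 ± 0.39 or 5.39-fold (adjusted p = 0.000810). All its arrays lay above every array of every proteasome subunit. The median of the list was -0.17. Of 16 genes of shuttle factors and of Cdc48, the ATPase that unfolds ubiquitylated proteins, and its partners, 2 rose and 0 fell, with a median of 0.25. UBX6, a partner of Cdc48, rose by 2.31 ± 1.20 (adjusted p = 0.0222), with 0.61 on Cy3-1 and 2.45 to 3.39 on the others. UFD1, a cofactor of Cdc48, rose by 0.74 ± 0.17 (adjusted p = 0.0245).

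In all, 6 of 74 tested genes of these 7 ubiquitin and proteasome lists were called, all higher, or 8.11% beside the 10.9% of all genes. Their median was -0.016. When Cy5-1, Cy5-2 or Cy3-2 was left out, UBP9 was the 1 gene of these lists still called. Without Cy3-1, 10 genes were called, 9 of them higher.

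Both other routes that handle damaged proteins were measured on the same arrays. Of 14 genes of cytosolic chaperones tested, 13 rose and 0 fell, with a median of 1.69, against 0 of 32 proteasome subunits. Of all genes tested, 8.85% were called higher and 2.02% lower. HSP26 (6.84 ± 0.71), SSA4 (6.43 ± 0.81), the disaggregase gene HSP104 (4.50 ± 0.62) and BTN2 (4.15 ± 0.31), which encodes a factor that sequesters misfolded proteins, had the largest ratios, and HSC82 the lowest, -0.066 ± 0.13. The count of 13 was 9 without Cy5-2 and 7 without Cy3-2. Of 7 vacuolar protease and inhibitor genes tested, 2 rose and 1 fell, with a median of 0.21. The protease gene PRB1 rose by 0.89 ± 0.33, the gene of its inhibitor, PBI2, by 0.76 ± 0.36, and the aminopeptidase gene APE3 fell to -1.10 ± 0.48 (adjusted p = 0.0251, 0.0451 and 0.0241). Without Cy5-1, or without Cy3-2, 0 of these 7 were called. The lists were chosen with earlier results of these data known, and no test set one list against another. None of these counts can thus be read as particular to a list.

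**Figure D4:**
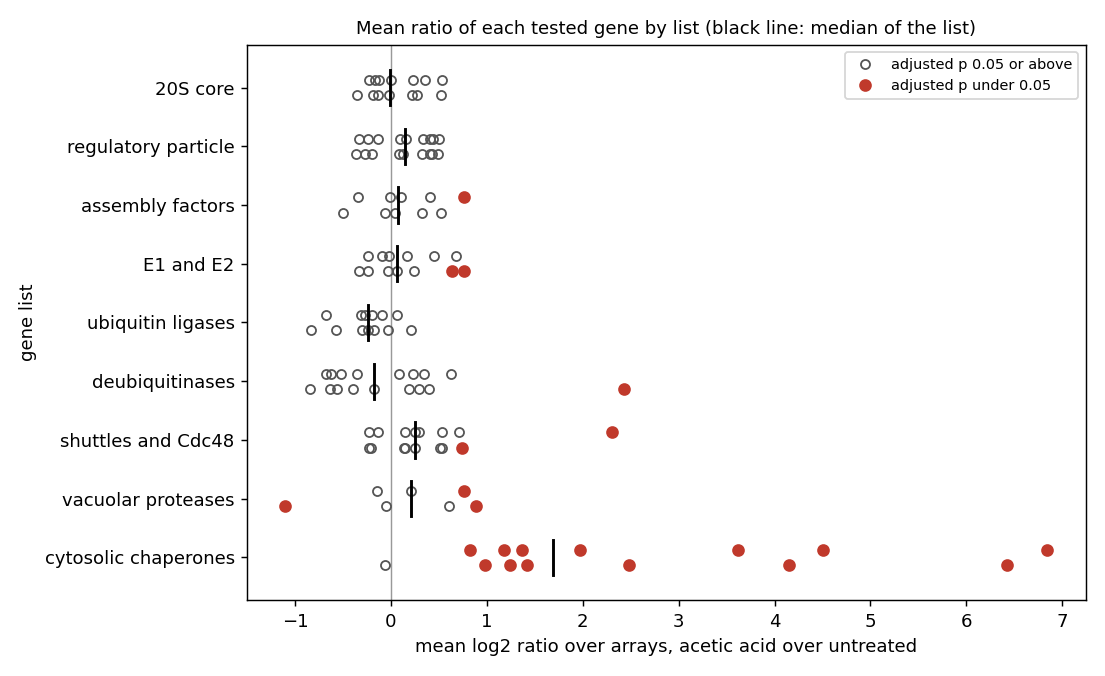
Mean log2 ratio over arrays (x axis) of each tested gene in 9 lists (y axis), with filled symbols for genes at an adjusted p under 0.05 and a black line at the median of each list. The subunits of the core and the regulatory particle stay between -0.36 and 0.54 with no filled symbol, while 13 of 14 chaperone genes are filled and reach 6.84.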

How the data were processed

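Per the labels' protocols, RNA came from an acid-phenol extraction and was dyed by indirect labelling. The authors deposited 1 log2 ratio per gene and array (base 2 assumed); the scanner, normalization and filters were not given in the sources used here. Signs and 3 decimals were kept as deposited. The RefSeq table (assembly R64) held 5316 of the 5799 names as locus tags and gave the symbols, those of all 36 members among them.

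For genes with at least 3 values, the mean ratio was tested against 0 in limma 3.58.1 under R 4.3.3 (two-sided, lmFit and eBayes), adjusting p-values by Benjamini-Hochberg over all 5291 genes, with a threshold of 0.05. The fit was checked on simulated data. Acid in Cy5 and acid in Cy3 arrays were averaged, so dye effects cancel in the mean of genes with 4 values, but not in that of RPN4. The members and the 10 gene lists were chosen with earlier results of these data known. The named genes were all members, with full values for RPN4, UBI4, UMP1 and the highest and lowest of each ring or subunit class, and up to 4 called genes per list (or the 2 with the smallest p). RPN9, RPN11, RPN12, RPT3 and PRE2, and other genes outside the rule, were named after their values were seen.

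Alternatives were a dye term, replicate blocks, centring, scaling, quantile normalization, other minimums of values, other variance estimates, a minimum fold of 1.5 and leaving out each array. Deviations from the mean of the dye orientation correlated at 0.252 between arrays of the same number. Since there are 2 such pairs, the arrays were not treated as paired.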

Additional observations from a re-analysis of the deposited data

Results flagged for a closer look

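In 4 of 34 members with 4 values, 1 array lay far from the other 3, by a gap above Dixon's 95% critical value; by chance about 1 in 20 groups do so, and 8.19% of all genes with 4 values did. In PRE4, Cy3-1 was the low array (-1.10; gap 0.842 of the range). In RPN9 the same array was the high one (0.74; 0.849). In RPN8, Cy5-2 was low (-0.42, against 0.29 to 0.41; 0.849), and in PUP3, Cy3-2 was high (0.16; 0.831).

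In 2 of 34 members the arrays with acid in Cy5 and those with acid in Cy3 lay on opposite sides of 0, as in 8.21% of all genes with 4 values. PRE1 had -0.18 and -0.08 with acid in Cy5 and 0.47 and 0.67 with acid in Cy3, a difference of 0.70. RPT6 had -0.09 and -0.02 against 0.38 and 0.07, a difference of 0.279. The dye term of neither passed in limma (adjusted p = 0.665 and 0.814).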

How the results depend on the processing

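The number of genes called, 575, was 377 with same-numbered arrays averaged (a replicate block by averaging), 204 without shared variance, 168 with a minimum fold of 1.5, and 187 to 899 when 1 array was left out. Called members numbered 0, against 1 with a dye term, with centring and scaling and after quantile normalization (UBI4 in each), 2 with the replicate number as a random block (PRE7 and UBI4; block correlation -0.109), 0 with same-numbered arrays averaged and 0 to 1 with 1 array left out. In the ubiquitin and proteasome lists 6 genes were called, all higher, against 10 after quantile normalization (7 higher) and 2 with same-numbered arrays averaged. The number was 2 without shared variance, 1 with a minimum fold and 1 to 10 with 1 array left out. Of the 10 without Cy3-1, 9 were higher. The core minus the regulatory particle stayed below 0, between -0.14 and -0.0097, under its 9 alternatives. All 32 subunits had 4 values, so testing such genes only, or averaging same-numbered arrays, had to return the main value (-0.062). Over 15 alternatives, 8 of 35 members changed sign in 10 cases, each with 1 array left out and none past the threshold. Their means then ran from -0.09 to 0.043 for SCL1, -0.0843 to 0.1027 for PRE6, -0.3717 to 0.0597 for PRE4, -0.4827 to 0.0763 for RPN1, -0.2513 to 0.0227 for RPN2, -0.6137 to 0.0157 for RPN7, -0.008 to 0.4247 for RPT2 and -0.0177 to 0.1387 for RPT6. Apart from UBI4 and PRE7, no member was called under any alternative. Promoter motif counts were not run. The number of arrays limits the precision, and signal over background is unknown.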

Other observations

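The table holds a row named YFL006W, which the RefSeq gene table lists as an older name of the BLM10 reading frame. It had log2 ratios of -0.88, -0.50, -0.06 and -0.52, with a mean of -0.49 ± 0.34 (SD, n = 4), below 0 on all 4 arrays (adjusted p = 0.127 in limma). Whether its spot measures the transcript of BLM10 is not known, so it is not counted as a member.

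Among the 34 members with 4 values, Cy5-2 was the lowest array in 15 (44.1%, against 23.0% of all genes with 4 values) and the highest in 2 (5.88%, against 26.8%). Cy3-1 was the highest in 16 (47.1%, against 35.6%).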
